A study of Mus musculus with 10 samples.

Results

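The genes described here are 10 markers of pericytes and other mural cells, the cells that wrap the outside of blood vessels: Pdgfrb, Notch3, Heyl, Kcnj8, Abcc9, Rgs5, Vtn, Ndufa4l2, Cox4i2 and Higd1b. They were taken by symbol from a raw count table of 55536 mouse gene identifiers, in which each of the 10 symbols matched 1 identifier, and they were chosen by their counts in these same libraries, with earlier results on them known. The study profiled ribosome-bound RNA from the brain region that its labels call S1DZ, and its design places the work in the primary somatosensory cortex. All mice received the same virus, AAV5-EF1α-Flex-EGFPL10a, which lets cells with Cre make a green fluorescent tag on the ribosomal protein L10a, and tagged ribosomes were pulled down 4 weeks later with antibodies against GFP (translating ribosome affinity purification, TRAP). The groups differ in the gene that drives Cre, with 3 libraries from Il-17rb-Cre mice, 3 from Il-17ra-Cre mice and 4 from Il-17rc-Cre mice. Each group is thus meant to sample the infected cells near the injection that had that driver switched on. The labels give no age, sex or strain, and do not say whether a replicate is 1 animal, so the p-values speak only for the spread among these libraries, part of which may be technical.

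Pericytes sit in the basement membrane of capillaries, and smooth muscle cells ring the larger vessels. Endothelial cells draw pericytes to the vessel by secreting PDGF-B, which binds the receptor encoded by Pdgfrb, and Notch3 is the Notch receptor characteristic of mural cells. In the brain, pericytes help to maintain the blood-brain barrier and to adjust capillary diameter. The other members include a potassium channel and its sulfonylurea receptor subunit (Kcnj8 and Abcc9), a regulator of G protein signalling (Rgs5), a secreted matrix protein (Vtn) and mitochondrial proteins (Ndufa4l2, Cox4i2 and Higd1b).

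Promoter windows from RefSeq (build GRCm38.p6, 250 bases before to 6 bases after the start site) were matched for 5 members, Rgs5, Kcnj8, Abcc9, Vtn and Notch3. They were searched on both strands for TGGGAA, the core recognised by RBPJ, the DNA-binding protein of the Notch pathway, because Notch3 and the Notch target Heyl are among the members. The motif was found in 3 of the 5 windows, and in 22.03% of all 32851 windows of this length. The matching windows are shown with the motif in capitals and are read 5′ to 3′ on the strand of the gene: Kcnj8 at chr6:142571609-142571864 (minus strand, motif beginning at the start site), Abcc9 at chr6:142702269-142702524 (minus strand, motif at -221 from the start site) and Vtn at chr11:78498870-78499125 (plus strand, motif at -236). A match describes the letters only.
Kcnj8: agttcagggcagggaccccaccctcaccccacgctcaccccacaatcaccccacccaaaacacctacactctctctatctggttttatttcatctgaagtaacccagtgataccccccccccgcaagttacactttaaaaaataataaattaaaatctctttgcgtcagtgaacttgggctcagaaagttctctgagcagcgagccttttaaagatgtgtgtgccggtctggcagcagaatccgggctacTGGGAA
Abcc9: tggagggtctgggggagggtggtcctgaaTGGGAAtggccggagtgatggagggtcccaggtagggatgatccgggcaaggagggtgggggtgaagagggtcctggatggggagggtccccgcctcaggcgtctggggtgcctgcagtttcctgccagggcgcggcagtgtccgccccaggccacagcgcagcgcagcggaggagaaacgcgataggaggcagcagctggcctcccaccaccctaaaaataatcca
Vtn: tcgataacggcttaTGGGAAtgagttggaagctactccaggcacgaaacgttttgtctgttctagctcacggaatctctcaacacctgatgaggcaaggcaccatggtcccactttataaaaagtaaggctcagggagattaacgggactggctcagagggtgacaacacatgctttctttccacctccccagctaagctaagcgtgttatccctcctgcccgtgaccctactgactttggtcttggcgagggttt

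Library totals ran from 39692925 to 165844244 counts, and 21205 to 24790 genes had at least 1 count. The 10 members had counts in every Il-17ra-Cre and Il-17rc-Cre library. Some libraries stood apart within their group. Oligodendrocyte markers summed to 46340, 31680 and 5537 CPM in Il-17ra-Cre replicates 1, 2 and 3 (CPM: library-scaled counts after TMM normalisation, which evens out composition). The gene that encodes the protein under the tag, Rpl10a, read 58.7, 70.9 and 679 CPM in that order, and replicate 3 was also the deepest library. Transcripts of the driver genes did not all follow the labels. Il17rb was at 0.614 to 0.872 CPM in Il-17rb-Cre libraries, against 1.27 to 3.75 CPM in Il-17ra-Cre and 0.0667 to 2.72 CPM in Il-17rc-Cre libraries, and Il17ra was at 16.7 to 21.4 CPM in Il-17ra-Cre libraries, within the 15.6 to 30.7 CPM of the other libraries. Il17rc was at 1.03 to 3.19 CPM in Il-17rb-Cre libraries, but at 21.4 to 41.2 CPM in Il-17ra-Cre libraries, against 20.3 to 39.9 CPM in Il-17rc-Cre libraries. The group names used here are those of the labels.

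All 10 members had the same order across the groups. Each was lowest in Il-17rb-Cre libraries, intermediate in Il-17ra-Cre libraries and highest in Il-17rc-Cre libraries, with no overlap between any pair of groups. This order without overlap held for 2.87% of the 20301 genes tested (genes with enough counts by edgeR's filter, which all 10 members passed). The members were chosen by their counts in these libraries, so nothing is read from this share. The summed level of the 10 genes was 5.37, 8.16 and 6.86 CPM in Il-17rb-Cre libraries, against 164, 144 and 229 CPM in Il-17ra-Cre libraries and 733, 1318, 774 and 611 CPM in Il-17rc-Cre libraries. In bulk libraries such as these, fewer mural cells in a pull-down and less of each transcript per cell cannot be told apart. All 10 libraries are pull-downs, with none of the input, so RNA carried over from untagged cells cannot be told apart from these either.

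**Figure D1:**
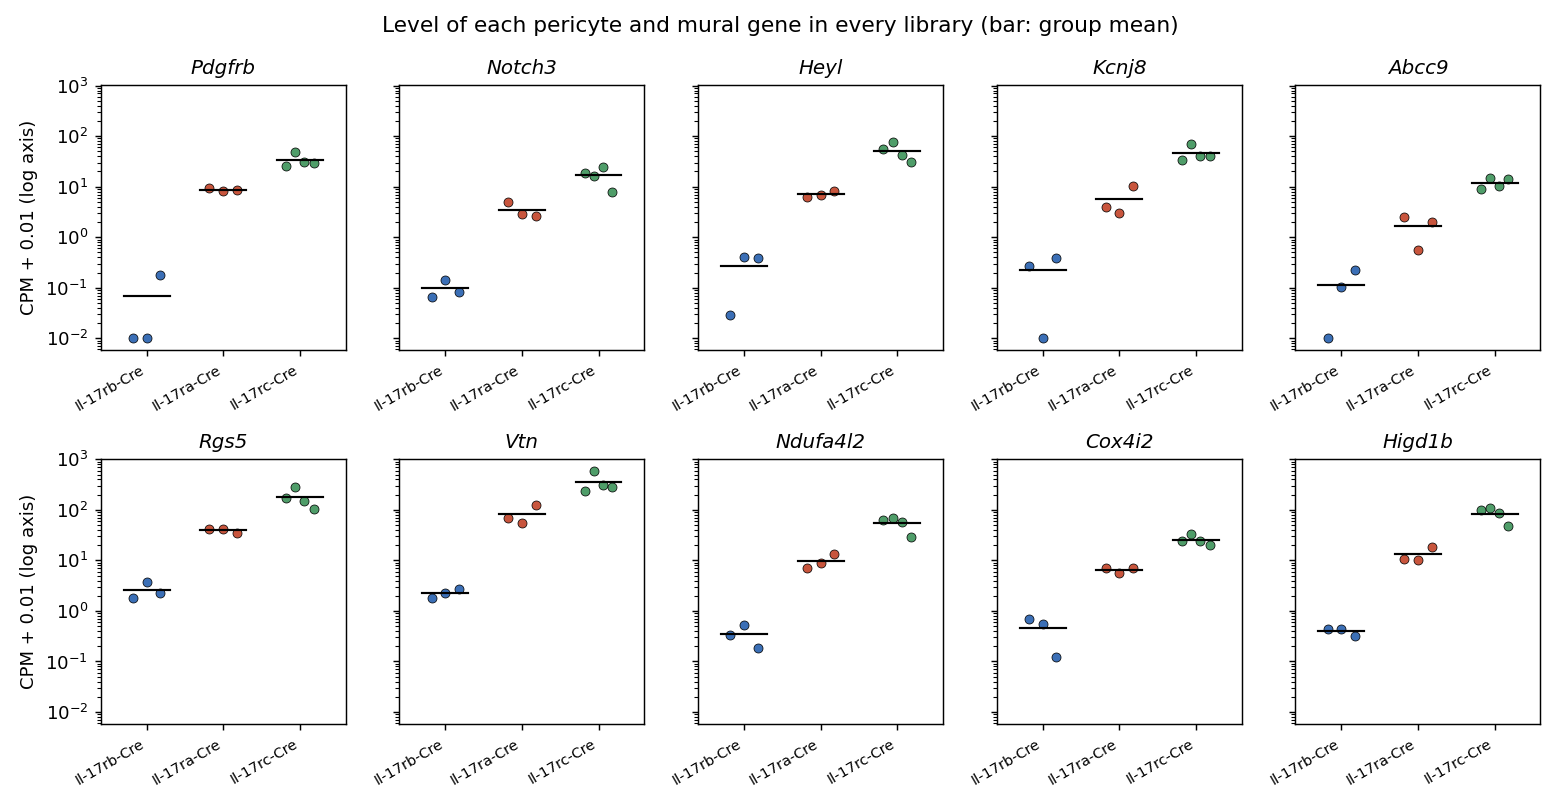
Level of each of the 10 genes in every library, in CPM plus 0.01 on a log axis, with Il-17rb-Cre (n = 3), Il-17ra-Cre (n = 3) and Il-17rc-Cre (n = 4) from left to right. Points are libraries and bars are group means, and in every panel the groups climb in this order without overlap.

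Counted together, 10 of 10 members were called lower in Il-17rb-Cre against Il-17ra-Cre (edgeR adjusted p under 0.05), where 24.4% of all genes tested were called lower, and 10 of 10 in Il-17rb-Cre against Il-17rc-Cre, where 21.9% were. Over all genes, 16.4% and 17.7% were called higher. The members were chosen for these differences, so nothing is read from the counts. Every Il-17rb-Cre library was under every library of the other group for all 10, as it was for 29.2% of all genes in the first comparison and 25.5% in the second. The median log2 fold change of the members was -4.81 against Il-17ra-Cre and -7.44 against Il-17rc-Cre, where the medians over all genes were -0.09 and 0.02. The comparisons share the Il-17rb-Cre libraries.

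In Il-17ra-Cre against Il-17rc-Cre, 6 of the 10 members were called lower (Higd1b, Ndufa4l2, Rgs5, Vtn, Heyl and Notch3), where 0.798% of all genes were and 1.38% were called higher, and the median log2 fold change of the members was -2.37, against 0.03 over all genes. The choice of members used these libraries too, so nothing is read from this count either. The members not called, Cox4i2, Kcnj8, Abcc9 and Pdgfrb, had log2 fold changes from -2.99 to -1.93, against -2.84 to -2.11 for those called. Every Il-17ra-Cre library was under every Il-17rc-Cre library for all 10, which was so for 6.65% of all genes. The number called depended on the libraries in the model. It was 0 without any 1 of Il-17ra-Cre replicates 1 and 2 and Il-17rc-Cre replicates 1 and 3, it was 2 and 1 without Il-17rb-Cre replicates 1 and 2, 4 without Il-17rb-Cre replicate 3 or Il-17rc-Cre replicate 4, and 8 without Il-17ra-Cre replicate 3. DESeq2 and limma voom each called all 10. Lower calls over all genes moved as well. They were 1123 of 20301 with DESeq2, 1863 of 20301 with limma voom and 1345 of 21073 without Il-17ra-Cre replicate 3. Without any 1 of the other libraries named here they were 0 to 30. The median ran from -2.66 to -2.25 over all alternatives, with Kcnj8 between -3.73 and -2.23 and Abcc9 between -3.54 and -2.47. It was -2.25 when Il-17ra-Cre replicates 1 and 2, the libraries rich in oligodendrocyte transcripts, were both left out and the group rested on replicate 3 alone.

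**Figure D2:**
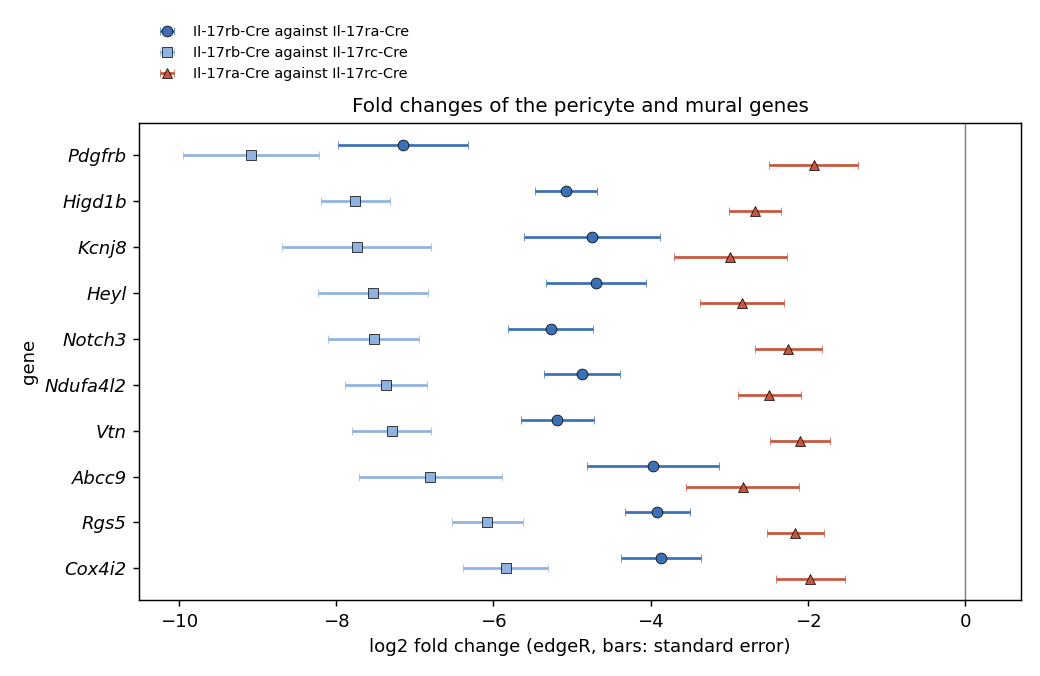
Log2 fold change of each of the 10 genes (points, with bars for the standard error) in Il-17rb-Cre against Il-17ra-Cre, Il-17rb-Cre against Il-17rc-Cre and Il-17ra-Cre against Il-17rc-Cre. All points lie left of 0, from -9.08 for Pdgfrb in Il-17rb-Cre against Il-17rc-Cre to -1.93 for the same gene in Il-17ra-Cre against Il-17rc-Cre.

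Pdgfrb, the PDGF-B receptor of pericytes, had 0, 0 and 0.172 CPM in Il-17rb-Cre libraries, against 9.54, 8.12 and 8.57 CPM in Il-17ra-Cre libraries and 25.3, 47.9, 30.2 and 29.8 CPM in Il-17rc-Cre libraries. Its whole signal in the Il-17rb-Cre group was 12 counts in replicate 3, and in replicates 1 and 2, where it had none, 3 counts would be 0.0563 and 0.0400 CPM. The log2 fold change was -7.15 ± 0.83 (SE) in Il-17rb-Cre against Il-17ra-Cre and -9.08 ± 0.86 against Il-17rc-Cre. Both folds rest on those 12 counts, and without replicate 3 the receptor had no count left in the group, while without replicate 2 the first fold change was -6.52. In Il-17ra-Cre against Il-17rc-Cre the log2 fold change was -1.93 ± 0.57. The fold changes of the members are given without p-values, since the members were chosen by their counts in these libraries.

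The PDGF ligands and the sister receptor were measured in the same libraries, and 1 of these 5 genes was higher and 3 were lower in Il-17rb-Cre against Il-17ra-Cre. The counts were again 1 higher and 3 lower against Il-17rc-Cre, and 0 of 5 passed in Il-17ra-Cre against Il-17rc-Cre by edgeR or DESeq2, where 1 had an unadjusted p under 0.05 by edgeR and limma voom called 1 higher. Pdgfb, the ligand of Pdgfrb, was at 28.1 ± 1.85 CPM (mean ± SD, n = 3) in Il-17rb-Cre libraries, 12.02 ± 7.21 CPM (n = 3) in Il-17ra-Cre libraries and 11.2 ± 2.28 CPM (n = 4) in Il-17rc-Cre libraries. It was thus higher where its receptor was lowest, by a log2 fold change of 1.22 ± 0.41 against Il-17ra-Cre (edgeR adjusted p = 0.0354) and 1.32 ± 0.37 against Il-17rc-Cre (edgeR adjusted p = 0.0179). The first call was lost without Il-17ra-Cre replicate 2 (edgeR adjusted p = 0.0824) or any 1 of Il-17rb-Cre replicates 1, 2 and 3 (edgeR adjusted p = 0.0662, 0.0810 and 0.0634), and the second without Il-17rb-Cre replicate 2 (edgeR adjusted p = 0.0610). Pdgfd, another ligand that binds this receptor, was at 0.0267 ± 0.0462 CPM in Il-17rb-Cre libraries, against 4.22 ± 2.94 CPM in Il-17ra-Cre and 1.83 ± 1.11 CPM in Il-17rc-Cre libraries, and was lower in both comparisons (edgeR adjusted p = 0.0025 and 0.00512).

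The remaining PDGF genes were each called lower in Il-17rb-Cre libraries, though not always in both comparisons. Pdgfa, the ligand of the sister receptor, averaged 37.6 ± 2.73 CPM in Il-17rb-Cre libraries, against 68.7 ± 8.36 CPM in Il-17ra-Cre and 48.6 ± 18.1 CPM in Il-17rc-Cre libraries. Its difference from Il-17ra-Cre passed (edgeR adjusted p = 0.0304) but not without any 1 of Il-17ra-Cre replicates 1 and 3 or Il-17rb-Cre replicates 1 to 3 (edgeR adjusted p between 0.0606 and 0.085), and 26.1% of its exon length overlaps an antisense gene whose reads cannot be told apart. Pdgfc averaged 2.67 ± 0.108 CPM in Il-17rb-Cre libraries, against 4.23 ± 1.70 CPM in Il-17ra-Cre and 7.76 ± 2.75 CPM in Il-17rc-Cre libraries, and was lower than in the Il-17rc-Cre group (edgeR adjusted p = 0.0103). Pdgfra, the receptor typical of oligodendrocyte precursors and fibroblasts, averaged 0.387 ± 0.361 CPM in Il-17rb-Cre libraries, against 5.18 ± 2.79 CPM in Il-17ra-Cre and 3.38 ± 2.88 CPM in Il-17rc-Cre libraries. It was lower in both comparisons (edgeR adjusted p = 0.015 and 0.0275), and without Il-17rb-Cre replicate 2 neither passed (edgeR adjusted p = 0.0548 and 0.0872). The call against Il-17rc-Cre was also lost without Il-17rb-Cre replicate 1 (edgeR adjusted p = 0.0676) or Il-17rc-Cre replicate 2 (edgeR adjusted p = 0.065).

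Notch3 (GRCm38 chromosome 17, 32120820 to 32166852, minus strand), the mural Notch receptor, was at 0.0563, 0.134 and 0.0715 CPM in Il-17rb-Cre libraries, against 4.96, 2.92 and 2.67 CPM in Il-17ra-Cre libraries and 18.4, 16.2, 24.1 and 7.96 CPM in Il-17rc-Cre libraries. The Il-17rb-Cre values stand for 3, 10 and 5 counts. The log2 fold change was -5.27 ± 0.54 in Il-17rb-Cre against Il-17ra-Cre, -7.52 ± 0.58 against Il-17rc-Cre and -2.25 ± 0.42 in Il-17ra-Cre against Il-17rc-Cre. An antisense gene overlaps 6.03% of its exon length. Heyl (chromosome 4, 123233556 to 123249875, plus strand), a transcriptional repressor switched on by Notch signalling, had 0.0188, 0.400 and 0.372 CPM in Il-17rb-Cre libraries, against 6.25, 6.90 and 8.17 CPM in Il-17ra-Cre libraries and 56.3, 75.0, 42.4 and 30.5 CPM in Il-17rc-Cre libraries. Here Il-17rb-Cre replicate 1 was lowest, with 1 count. Its log2 fold change was -4.69 ± 0.63 in Il-17rb-Cre against Il-17ra-Cre, -7.53 ± 0.70 against Il-17rc-Cre and -2.84 ± 0.54 in Il-17ra-Cre against Il-17rc-Cre.

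Of the 23 other Notch pathway genes, 3 were higher and 12 lower in Il-17rb-Cre against Il-17ra-Cre, with a median log2 fold change of -1.08 against -0.09 over all genes tested. Against Il-17rc-Cre, 1 was higher and 12 were lower, with a median of -1.30 against 0.02 over all genes. The count of 3 higher was 1 without any 1 of the Il-17rb-Cre libraries, Il-17ra-Cre replicates 1 and 2 or Il-17rc-Cre replicates 1 and 3. Notch1 was at 0.137 ± 0.0872 CPM in Il-17rb-Cre libraries, against 14.8 ± 7.75 CPM in Il-17ra-Cre and 15.0 ± 2.34 CPM in Il-17rc-Cre libraries, a log2 fold change of -6.69 ± 0.62 and -6.71 ± 0.62 (edgeR adjusted p = 4.31e-05 and 2.92e-05). Notch2 was lower in both comparisons too, at 0.0608 ± 0.0939 CPM in Il-17rb-Cre libraries, against 3.72 ± 1.43 CPM in Il-17ra-Cre and 2.85 ± 1.73 CPM in Il-17rc-Cre libraries (edgeR adjusted p = 0.00236 and 0.0029). Notch4, the receptor of endothelial cells, averaged 2.00 ± 0.0712 CPM in Il-17rb-Cre libraries, against 3.74 ± 1.65 CPM in Il-17ra-Cre libraries (edgeR adjusted p = 0.0924) and 7.68 ± 2.57 CPM in Il-17rc-Cre libraries (edgeR adjusted p = 0.00315). Without Il-17ra-Cre replicate 1 its difference from Il-17ra-Cre passed (edgeR adjusted p = 0.0449).

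Among modifiers of Notch, Lfng, which adds sugars to Notch receptors, went with the members and Rfng, a gene of the same family, went the other way. Lfng averaged 0.794 ± 0.104 CPM in Il-17rb-Cre libraries, against 11.4 ± 2.97 CPM in Il-17ra-Cre and 37.3 ± 17.02 CPM in Il-17rc-Cre libraries (edgeR adjusted p = 1.08e-04 and 1.32e-05). Rfng averaged 105 ± 15.6 CPM in Il-17rb-Cre libraries, against 43.9 ± 13.8 CPM in Il-17ra-Cre and 61.9 ± 6.15 CPM in Il-17rc-Cre libraries, and was higher in both comparisons (edgeR adjusted p = 0.0022 and 0.0184). Its call against Il-17rc-Cre was lost without Il-17rb-Cre replicate 2 or 3 (edgeR adjusted p = 0.109 and 0.0584).

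In Il-17ra-Cre against Il-17rc-Cre, 4 of the 23 were lower, namely Hes1, Lfng, Hey2 and Nrarp (edgeR adjusted p = 0.0131, 0.0452, 0.0452 and 0.0284), and without any 1 of Il-17ra-Cre replicates 1 and 2 and Il-17rc-Cre replicate 3 none of these passed (edgeR adjusted p from 0.056 to 0.162). The count was 1 or 2 without any 1 of the Il-17rb-Cre libraries or Il-17rc-Cre replicates 1 and 4. The count of Notch genes higher was 0, against 5 with limma voom and 1 without Il-17ra-Cre replicate 3. Nrarp, a feedback inhibitor of Notch, shares 79.4% of its exon length with an antisense gene.

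The repressors related to Heyl were also read beside it. Hey1 averaged 73.5 ± 5.21 CPM in Il-17rb-Cre libraries, against 114 ± 29.8 CPM in Il-17ra-Cre and 220 ± 43.2 CPM in Il-17rc-Cre libraries, with a log2 fold change of -1.58 ± 0.21 in Il-17rb-Cre against Il-17rc-Cre (edgeR adjusted p = 3.31e-04). Against Il-17ra-Cre it was -0.64 ± 0.22 (edgeR adjusted p = 0.0419), a call lost without any 1 of Il-17rb-Cre replicates 1, 2 and 3, Il-17ra-Cre replicates 1 and 3 and Il-17rc-Cre replicates 3 and 4 (edgeR adjusted p from 0.0533 to 0.127). Hey2 averaged 1.07 ± 0.178 CPM in Il-17rb-Cre libraries, against 4.09 ± 1.12 CPM in Il-17ra-Cre and 9.93 ± 1.21 CPM in Il-17rc-Cre libraries (edgeR adjusted p = 6.43e-04 and 3.02e-05). Hes1, another Notch target, did not share the order of the members, with 24.3 ± 2.40 CPM in Il-17rb-Cre libraries, 17.2 ± 2.56 CPM in Il-17ra-Cre libraries and 58.9 ± 8.24 CPM in Il-17rc-Cre libraries. It was lower in Il-17rb-Cre than in Il-17rc-Cre (edgeR adjusted p = 3.02e-04), and its call as higher than in Il-17ra-Cre (edgeR adjusted p = 0.0467) was lost without any 1 library but Il-17ra-Cre replicate 3 and Il-17rc-Cre replicate 4 (edgeR adjusted p from 0.0508 to 0.133).

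Kcnj8 (chromosome 6, 142564837 to 142571614, minus strand) encodes Kir6.1, the pore of the ATP-sensitive potassium channel of mural cells, and Abcc9 (chromosome 6, 142587862 to 142702315, minus strand) encodes its partner SUR2. The genes are neighbours with 16247 bases between them, and their promoter windows are those printed above. Kcnj8 was at 0.263, 0 and 0.386 CPM in Il-17rb-Cre libraries, against 3.94, 2.95 and 10.2 CPM in Il-17ra-Cre libraries and 33.2, 69.5, 39.9 and 40.2 CPM in Il-17rc-Cre libraries. It had no count in Il-17rb-Cre replicate 2 and 14 and 27 counts in replicates 1 and 3. Its log2 fold change was -4.75 ± 0.87 in Il-17rb-Cre against Il-17ra-Cre, -7.74 ± 0.95 against Il-17rc-Cre and -2.99 ± 0.72 in Il-17ra-Cre against Il-17rc-Cre. Without Il-17rb-Cre replicate 3 the first of these was -5.59 and the second -8.63, and without Il-17rb-Cre replicate 2 the first was -4.12. Without Il-17ra-Cre replicate 3, which held the most Kcnj8 in its group, the first was -4.01 and the last -3.73. Abcc9 was at 0, 0.0934 and 0.214 CPM in Il-17rb-Cre libraries, against 2.48, 0.557 and 2.02 CPM in Il-17ra-Cre libraries and 8.83, 15.0, 10.2 and 14.3 CPM in Il-17rc-Cre libraries. The lowest Il-17ra-Cre library, replicate 2, was still above the highest Il-17rb-Cre library. Its log2 fold change was -3.97 ± 0.84 in Il-17rb-Cre against Il-17ra-Cre, -6.80 ± 0.91 against Il-17rc-Cre and -2.83 ± 0.72 in Il-17ra-Cre against Il-17rc-Cre, and without Il-17rb-Cre replicate 3 the first was -5.00 and the second -7.88.

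The channel subunits best known from neurons and pancreatic beta cells, Kcnj11 (Kir6.2) and Abcc8 (SUR1), were higher in Il-17rb-Cre libraries, where Kcnj8 and Abcc9 were lowest. Kcnj11 averaged 23.95 ± 1.199 CPM in Il-17rb-Cre libraries, against 7.77 ± 5.24 CPM in Il-17ra-Cre and 6.41 ± 1.51 CPM in Il-17rc-Cre libraries, a log2 fold change of 1.62 ± 0.41 and 1.90 ± 0.38 (edgeR adjusted p = 0.0108 and 0.0030). Abcc8 averaged 15.1 ± 4.57 CPM in Il-17rb-Cre libraries, against 3.64 ± 0.372 CPM in Il-17ra-Cre and 5.91 ± 1.96 CPM in Il-17rc-Cre libraries, a log2 fold change of 2.05 ± 0.35 and 1.35 ± 0.32 (edgeR adjusted p = 0.00138 and 0.00725). The last call was lost without Il-17rb-Cre replicate 2 (edgeR adjusted p = 0.0534). Neither passed in Il-17ra-Cre against Il-17rc-Cre, with a log2 fold change of 0.29 ± 0.38 for Kcnj11 and -0.70 ± 0.33 for Abcc8 (edgeR adjusted p = 0.765 and 0.288). Per length, in TPM (levels scaled by exon length), Kcnj8 stood at 0 to 2.28% of Kcnj11 in Il-17rb-Cre libraries, 85.7 to 125% in Il-17ra-Cre libraries and 603 to 1430% in Il-17rc-Cre libraries. Abcc9 stood at 0 to 1.80% of Abcc8 in Il-17rb-Cre libraries, 13.6 to 63.95% in Il-17ra-Cre libraries and 135 to 427% in Il-17rc-Cre libraries. Which pair was ahead thus differed between the groups. The Kcnj11 and Abcc8 pair was ahead in every Il-17rb-Cre library and the Kcnj8 and Abcc9 pair in every Il-17rc-Cre library. Cell makeup and a change within cells cannot be told apart here.

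Rgs5 (chromosome 1, 169655501 to 169695813, plus strand) shortens signals from G protein-coupled receptors and is among the most used pericyte markers. It was at 1.78, 3.80 and 2.30 CPM in Il-17rb-Cre libraries, against 42.7, 42.6 and 34.2 CPM in Il-17ra-Cre libraries and 173, 289, 147 and 104 CPM in Il-17rc-Cre libraries. With 95, 285 and 161 counts it was, beside Vtn, the best counted member in the Il-17rb-Cre group. The log2 fold change was -3.92 ± 0.41 in Il-17rb-Cre against Il-17ra-Cre, -6.08 ± 0.45 against Il-17rc-Cre and -2.16 ± 0.37 in Il-17ra-Cre against Il-17rc-Cre. Its relative Rgs4, common in cortical neurons, averaged 934 ± 109 CPM in Il-17rb-Cre libraries, against 259 ± 59.3 CPM in Il-17ra-Cre and 395 ± 27.9 CPM in Il-17rc-Cre libraries, and was higher in both comparisons (edgeR adjusted p = 6.5e-05 and 3.14e-04). Rgs16, another relative, averaged 8.47 ± 0.860 CPM in Il-17rb-Cre libraries, against 43.7 ± 17.6 CPM in Il-17ra-Cre and 50.3 ± 49.4 CPM in Il-17rc-Cre libraries (edgeR adjusted p = 0.0329 and 0.0216), and both calls were lost when any 1 of the Il-17rb-Cre libraries was left out (edgeR adjusted p from 0.0594 to 0.0962).

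Vtn (chromosome 11, 78499091 to 78502324, plus strand) encodes vitronectin, a secreted protein of blood plasma and matrix that brain pericytes make. It had 1.80, 2.26 and 2.75 CPM in Il-17rb-Cre libraries, against 69.5, 54.9 and 124 CPM in Il-17ra-Cre libraries and 233, 595, 311 and 287 CPM in Il-17rc-Cre libraries. The Il-17rb-Cre libraries lay close together, and the highest Il-17ra-Cre library, replicate 3, was below the lowest Il-17rc-Cre library, replicate 1. The log2 fold change was -5.19 ± 0.46 in Il-17rb-Cre against Il-17ra-Cre, -7.29 ± 0.50 against Il-17rc-Cre and -2.11 ± 0.38 in Il-17ra-Cre against Il-17rc-Cre.

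The 3 mitochondrial members are relatives of proteins that nearly all cells use. Ndufa4l2 (chromosome 10, 127514967 to 127517154, plus strand), a hypoxia-induced relative of the respiratory chain protein Ndufa4, had 0.319, 0.507 and 0.172 CPM in Il-17rb-Cre libraries, against 6.96, 9.08 and 13.5 CPM in Il-17ra-Cre libraries and 63.4, 70.5, 58.3 and 29.6 CPM in Il-17rc-Cre libraries. Its log2 fold change was -4.88 ± 0.48 in Il-17rb-Cre against Il-17ra-Cre, -7.37 ± 0.53 against Il-17rc-Cre and -2.49 ± 0.40 in Il-17ra-Cre against Il-17rc-Cre. Cox4i2 (chromosome 2, 152754173 to 152765037, plus strand), the second form of a cytochrome c oxidase subunit, had 0.695, 0.534 and 0.114 CPM in Il-17rb-Cre libraries, against 7.01, 5.57 and 6.93 CPM in Il-17ra-Cre libraries and 24.0, 33.0, 24.6 and 20.4 CPM in Il-17rc-Cre libraries. In the reported model Cox4i2 differed least among the members in the comparisons with Il-17rb-Cre. Its log2 fold change was -3.87 ± 0.51 in Il-17rb-Cre against Il-17ra-Cre, -5.84 ± 0.54 against Il-17rc-Cre and -1.97 ± 0.44 in Il-17ra-Cre against Il-17rc-Cre. With limma voom the first was -4.495, where Abcc9 was at -3.092, and the second was -6.539. Higd1b (chromosome 11, 102835849 to 102838040, plus strand), of the hypoxia-inducible domain family, had 0.432, 0.427 and 0.315 CPM in Il-17rb-Cre libraries, against 10.7, 10.4 and 18.5 CPM in Il-17ra-Cre libraries and 98.6, 107, 85.8 and 46.9 CPM in Il-17rc-Cre libraries. Its log2 fold change was -5.08 ± 0.40 in Il-17rb-Cre against Il-17ra-Cre, -7.76 ± 0.44 against Il-17rc-Cre and -2.68 ± 0.33 in Il-17ra-Cre against Il-17rc-Cre.

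The widely used relatives of these 3 genes did not show the same order. Ndufa4 averaged 1109 ± 212 CPM in Il-17rb-Cre libraries, against 432 ± 228 CPM in Il-17ra-Cre and 477 ± 133 CPM in Il-17rc-Cre libraries, and was higher in both comparisons (edgeR adjusted p = 0.0130 and 0.0150). The first call was lost without Il-17ra-Cre replicate 1 and the second without Il-17rb-Cre replicate 1 (edgeR adjusted p = 0.0503 and 0.0754). Cox4i1 averaged 998 ± 138 CPM in Il-17rb-Cre libraries, against 662 ± 234 CPM in Il-17ra-Cre and 715 ± 137 CPM in Il-17rc-Cre libraries and passed in neither (edgeR adjusted p = 0.0918 and 0.135), although without Il-17ra-Cre replicate 3 it passed in both (edgeR adjusted p = 0.00534 and 0.0412). Higd1a averaged 354 ± 45.5 CPM in Il-17rb-Cre libraries, against 214 ± 89.8 CPM in Il-17ra-Cre and 212 ± 21.5 CPM in Il-17rc-Cre libraries (edgeR adjusted p = 0.0458 and 0.0312). These calls were lost when 1 library was left out, for any library but Il-17ra-Cre replicate 3 in the first comparison and for any Il-17rb-Cre or Il-17rc-Cre library in the second, and 22.5% of the exon length of Higd1a is shared with an antisense gene. Higd2a averaged 299.9 ± 45.0 CPM in Il-17rb-Cre libraries, against 206 ± 61.6 CPM in Il-17ra-Cre and 229 ± 26.8 CPM in Il-17rc-Cre libraries and did not pass (edgeR adjusted p = 0.0704 and 0.150), but without Il-17ra-Cre replicate 3 it passed in both (edgeR adjusted p = 0.00313 and 0.0406). Higd1c had too few counts to be tested.

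Per length, each mural form was a small share of its relative in Il-17rb-Cre libraries and a larger one in the other groups. Ndufa4l2 stood at 0.0231 to 0.0614% of Ndufa4 in TPM in Il-17rb-Cre libraries, 2.44 to 4.03% in Il-17ra-Cre libraries and 9.10 to 27.1% in Il-17rc-Cre libraries. Cox4i2 stood at 0.0259 to 0.119% of Cox4i1 in Il-17rb-Cre libraries, 1.47 to 2.40% in Il-17ra-Cre libraries and 5.58 to 11.04% in Il-17rc-Cre libraries. Higd1b stood at 0.352 to 0.457% of Higd1a in Il-17rb-Cre libraries, 20.9 to 23.6% in Il-17ra-Cre libraries and 75.0 to 214% in Il-17rc-Cre libraries, so that in that last group it matched or passed its relative in some libraries. Rgs5 stood at 0.143 to 0.289% of Rgs4 in Il-17rb-Cre libraries, 7.16 to 13.7% in Il-17ra-Cre libraries and 19.8 to 50.5% in Il-17rc-Cre libraries. Over the 14 related genes tested, 5 were higher and 6 lower in Il-17rb-Cre against Il-17ra-Cre (median log2 fold change -0.05), and 5 were higher and 7 lower against Il-17rc-Cre (median -0.59). The higher count was 3 in the first comparison without Il-17ra-Cre replicate 1 and 3 in the second without Il-17rb-Cre replicate 1 or 2, and the lower count in the first was 3 without Il-17rb-Cre replicate 2.

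**Figure D3:**
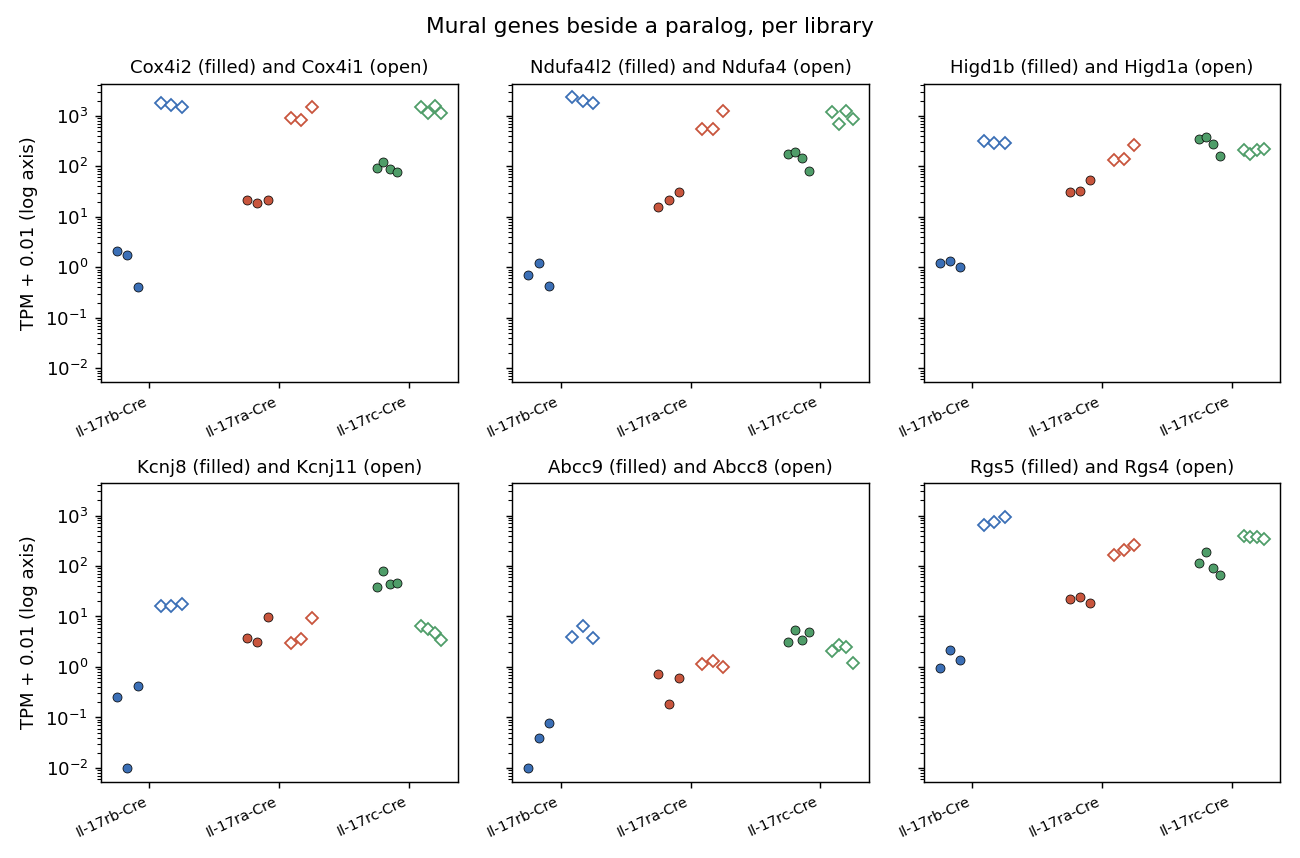
Level per length of 6 mural genes (filled circles) beside a relative (open diamonds) in every library, in TPM plus 0.01 on a log axis, with Il-17rb-Cre, Il-17ra-Cre and Il-17rc-Cre from left to right. Kcnj8 lies under Kcnj11 in Il-17rb-Cre libraries (0 to 2.28% of it) and above it in Il-17rc-Cre libraries (603 to 1430%), while Ndufa4l2 and Cox4i2 stay under their relatives in all libraries.

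The members differed among themselves in level. In Il-17rc-Cre libraries, where all were best measured, the order per length was Vtn at 511 ± 238 TPM (mean ± SD, n = 4), Higd1b at 291 ± 94.2 TPM, Ndufa4l2 at 147 ± 48.7 TPM, Rgs5 at 114 ± 52.2 TPM and Cox4i2 at 94.1 ± 20.4 TPM. Kcnj8 followed at 52.2 ± 19.0 TPM, Heyl at 29.1 ± 11.4 TPM, Pdgfrb at 17.7 ± 5.47 TPM, Notch3 at 5.96 ± 2.27 TPM and Abcc9 at 4.19 ± 1.09 TPM. Neighbours in this order overlapped between libraries except Pdgfrb and Notch3. Within the Il-17rc-Cre group, replicate 2 was highest for 9 members and replicate 3 for Notch3, and the lowest was replicate 4 for 6 members and replicate 1 for 4. Within the Il-17ra-Cre group, 5 members were highest in replicate 1 and 5 in replicate 3. After the group means were taken off, the log2 levels of member pairs were weakly related over the 10 libraries, with a median Pearson r of 0.22 over 45 pairs, from -0.83 for Pdgfrb and Cox4i2 to 0.87 for Higd1b and Ndufa4l2. These r values are descriptions, and the points share the depth and makeup of each library. Several members had few counts in Il-17rb-Cre libraries, such as 0, 0 and 12 for Pdgfrb, and counting error there also enters r.

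Other pericyte markers mostly showed the same side of the comparison with Il-17rb-Cre. Between the other groups most also had the direction of the members, though few were called. In Il-17ra-Cre against Il-17rc-Cre, 18 of 20 had a fold change below 0, and 14 of 20 had an unadjusted p under 0.05 by edgeR. Of 20, 16 were lower in Il-17rb-Cre against Il-17ra-Cre (median log2 fold change -4.42), 18 were lower against Il-17rc-Cre (median -5.82, or -5.68 with the 4 genes without Il-17rb-Cre counts at their bound), and 3 were lower in Il-17ra-Cre against Il-17rc-Cre (median -1.54). Art3, an ADP-ribosyltransferase family gene, had the order of the members, at 0.335 ± 0.225 CPM in Il-17rb-Cre libraries, 10.6 ± 2.33 CPM in Il-17ra-Cre libraries and 28.7 ± 11.9 CPM in Il-17rc-Cre libraries. Mcam and Cspg4, surface proteins of pericytes that other vascular or glial precursor cells also carry, did not. Mcam averaged 2.37 ± 0.730 CPM in Il-17rb-Cre libraries, against 92.5 ± 67.4 CPM in Il-17ra-Cre and 21.2 ± 18.1 CPM in Il-17rc-Cre libraries. Cspg4 averaged 1.40 ± 1.07 CPM in Il-17rb-Cre libraries, against 59.7 ± 43.7 CPM in Il-17ra-Cre and 42.8 ± 35.9 CPM in Il-17rc-Cre libraries. Both were lower in Il-17rb-Cre in each comparison (edgeR adjusted p between 0.00172 and 0.0137), although the call of Mcam against Il-17rc-Cre was lost without Il-17rb-Cre replicate 2 (edgeR adjusted p = 0.0552).

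Enpep, Steap4, Zic1 and Anpep had no count in any Il-17rb-Cre library. With 3 counts over the group as the floor (0.0151 CPM), they were at least 81.9-fold, 78.0-fold, 35.1-fold and 28.1-fold lower than in Il-17ra-Cre libraries and at least 313-fold, 268-fold, 140-fold and 52.6-fold lower than in Il-17rc-Cre libraries. These counting floors and those above cover counting error only. Slc19a1, a folate carrier, averaged 12.3 ± 2.21 CPM in Il-17rb-Cre libraries, against 10.8 ± 2.11 CPM in Il-17ra-Cre (edgeR adjusted p = 0.638) and 21.2 ± 6.48 CPM in Il-17rc-Cre libraries (edgeR adjusted p = 0.0406, and 0.0607 to 0.125 without any 1 of the Il-17rb-Cre libraries or Il-17rc-Cre replicates 1, 2 and 3). The 3 markers lower in Il-17ra-Cre against Il-17rc-Cre were P2ry14, Foxc1 and Slc6a20a (edgeR adjusted p = 0.0401, 0.0426 and 0.0493), and without any 1 of Il-17ra-Cre replicates 1 and 2 and Il-17rc-Cre replicates 1 and 3 none of them passed (edgeR adjusted p from 0.12 to 0.169). The count of these markers was 0 or 1 without any 1 of the Il-17rb-Cre libraries or Il-17rc-Cre replicate 4, 6 without Il-17ra-Cre replicate 3, and 13 by DESeq2 or limma voom.

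Vascular smooth muscle genes, the contractile side of the mural lineage, were lower in Il-17rb-Cre for 9 of 13 tested against Il-17ra-Cre (median log2 fold change -3.66) and 12 of 13 against Il-17rc-Cre (median -3.85), with none higher. Their summed level was 15.5, 20.1 and 16.4 CPM in Il-17rb-Cre libraries, against 122, 108 and 139 CPM in Il-17ra-Cre libraries and 290, 410, 247 and 183 CPM in Il-17rc-Cre libraries. Myl9, a myosin light chain of contractile cells, averaged 1.43 ± 0.483 CPM in Il-17rb-Cre libraries, against 48.8 ± 7.08 CPM in Il-17ra-Cre and 170 ± 60.0 CPM in Il-17rc-Cre libraries. It was also the 1 smooth muscle gene lower in Il-17ra-Cre against Il-17rc-Cre (edgeR adjusted p = 0.0384), a call lost without any 1 of the Il-17rb-Cre libraries, Il-17ra-Cre replicates 1 and 2 and Il-17rc-Cre replicates 1 and 3 (edgeR adjusted p from 0.0546 to 0.138). Acta2, the smooth muscle actin, averaged 1.00 ± 1.22 CPM in Il-17rb-Cre libraries, against 12.1 ± 4.90 CPM in Il-17ra-Cre and 19.3 ± 8.15 CPM in Il-17rc-Cre libraries (edgeR adjusted p = 0.00649 and 0.00278). Smtn, another contractile gene, averaged 1.39 ± 0.105 CPM in Il-17rb-Cre libraries, against 19.6 ± 11.9 CPM in Il-17ra-Cre and 13.3 ± 9.45 CPM in Il-17rc-Cre libraries (edgeR adjusted p = 0.00168 and 0.00301). Tpm2, a muscle tropomyosin, was closer between the groups, at 8.29 ± 1.32 CPM in Il-17rb-Cre libraries, 12.9 ± 9.95 CPM in Il-17ra-Cre libraries (edgeR adjusted p = 0.299) and 20.0 ± 5.65 CPM in Il-17rc-Cre libraries (edgeR adjusted p = 0.0452, and 0.0625 to 0.124 without any 1 of the Il-17rb-Cre libraries or Il-17rc-Cre replicates 2, 3 and 4).

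Markers of the neighbouring vessel cells moved with the members in part. Of 16 endothelial genes, 8 were lower in Il-17rb-Cre against Il-17ra-Cre, 12 were lower against Il-17rc-Cre, and 0 passed in Il-17ra-Cre against Il-17rc-Cre by edgeR, where 6 had an unadjusted p under 0.05, DESeq2 called 5 lower, and limma voom called 2 lower and 1 higher. The endothelial sum was 22.9, 29.6 and 29.3 CPM in Il-17rb-Cre libraries, against 433, 319 and 93.5 CPM in Il-17ra-Cre libraries and 150, 373, 132 and 149 CPM in Il-17rc-Cre libraries. Ly6c1, a surface protein of brain endothelium, was the most abundant gene of the list over all libraries, at 0.718 ± 0.569 CPM in Il-17rb-Cre libraries, against 203.5 ± 157.8 CPM in Il-17ra-Cre and 48.4 ± 36.02 CPM in Il-17rc-Cre libraries. It was lower in Il-17rb-Cre in both comparisons (edgeR adjusted p = 4.90e-04 and 0.00142), and its log2 fold change of 2.07 ± 0.79 in Il-17ra-Cre against Il-17rc-Cre, where 13 of the 16 endothelial fold changes were below 0, did not pass (edgeR adjusted p = 0.195). Mfsd2a, a lipid carrier of brain capillaries, averaged 0.352 ± 0.275 CPM in Il-17rb-Cre libraries, against 16.8 ± 3.38 CPM in Il-17ra-Cre and 28.0 ± 6.56 CPM in Il-17rc-Cre libraries (edgeR adjusted p = 9.74e-05 and 4.08e-05). Cldn5, a tight junction protein of the blood-brain barrier, averaged 1.42 ± 0.716 CPM in Il-17rb-Cre libraries, against 12.4 ± 7.25 CPM in Il-17ra-Cre and 25.4 ± 18.3 CPM in Il-17rc-Cre libraries (edgeR adjusted p = 0.00471 and 0.00108). Esam, an endothelial adhesion molecule, averaged 11.01 ± 0.959 CPM in Il-17rb-Cre libraries, against 9.74 ± 4.01 CPM in Il-17ra-Cre (edgeR adjusted p = 0.775) and 25.4 ± 14.4 CPM in Il-17rc-Cre libraries (edgeR adjusted p = 0.0389, and 0.0771 to 0.102 without any 1 of the Il-17rb-Cre libraries or Il-17rc-Cre replicate 2). Of 12 fibroblast genes tested, 4 were lower in Il-17rb-Cre against Il-17ra-Cre and 6 against Il-17rc-Cre, with none higher, and 0 passed in Il-17ra-Cre against Il-17rc-Cre by edgeR, DESeq2 or limma voom, where 0 had an unadjusted p under 0.05 by edgeR. Against Il-17ra-Cre the fibroblast count was 2 without Il-17ra-Cre replicate 2 and 7 without replicate 3. It was 0 with only the 2 groups compared and 7 with limma voom.

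**Figure D4:**
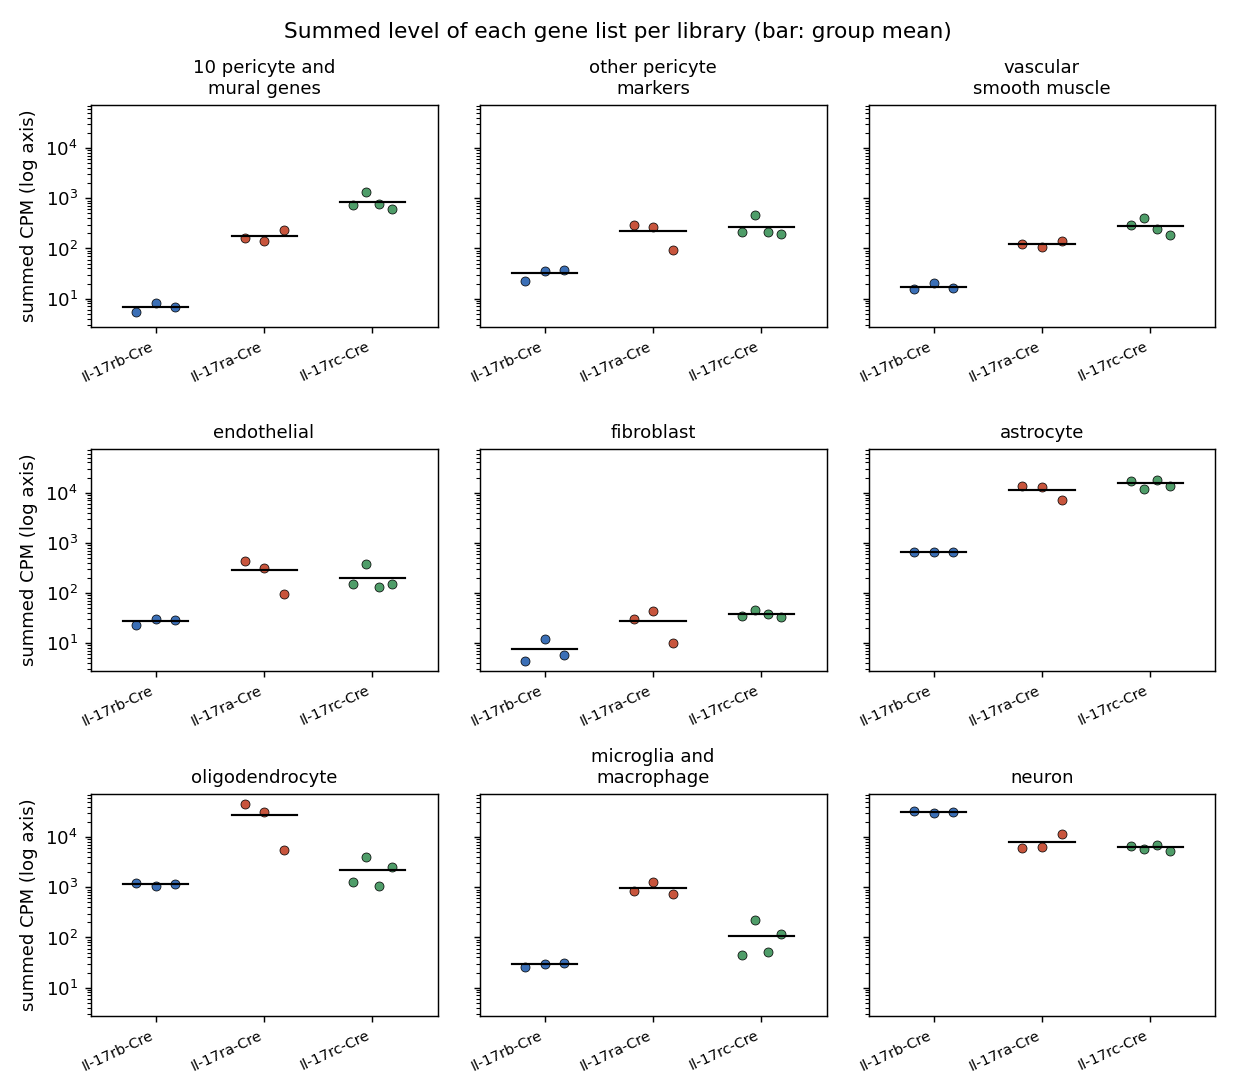
Summed level of the 10 mural genes and of 8 marker lists in every library, in CPM on a log axis, with Il-17rb-Cre, Il-17ra-Cre and Il-17rc-Cre from left to right and bars at the group means. The 10 mural genes lie at 5.37 to 8.16 CPM in Il-17rb-Cre libraries, 144 to 229 CPM in Il-17ra-Cre libraries and 611 to 1318 CPM in Il-17rc-Cre libraries, while the neuron sum is highest in Il-17rb-Cre libraries.

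Markers of other brain cells also differed between the groups, and their part in the result was not tested. Astrocyte genes were lower in Il-17rb-Cre for 12 of 12 in both comparisons, with summed levels of 646 to 662 CPM in Il-17rb-Cre libraries, 7099 to 13850 CPM in Il-17ra-Cre libraries and 11630 to 18190 CPM in Il-17rc-Cre libraries. Neuron genes summed to 30590 to 33930 CPM in Il-17rb-Cre libraries, 6026 to 11520 CPM in Il-17ra-Cre libraries and 5405 to 7128 CPM in Il-17rc-Cre libraries, with 7 of 12 higher and 1 lower in each comparison of Il-17rb-Cre. The lower one was Tubb3 against Il-17ra-Cre, lost without any 1 of Il-17ra-Cre replicates 1 and 2 and the Il-17rb-Cre libraries, and Gad2 against Il-17rc-Cre, lost without any 1 of Il-17rb-Cre replicates 1 and 2 and Il-17rc-Cre replicates 2, 3 and 4. Oligodendrocyte genes were lower for 12 of 12 in Il-17rb-Cre against Il-17ra-Cre but for 1 of 12 against Il-17rc-Cre, with sums of 1057 to 1221 CPM in Il-17rb-Cre libraries and 1078 to 4108 CPM in Il-17rc-Cre libraries. Microglia and macrophage genes were lower for 14 of 14 and 10 of 14, and their sums were 26.0 to 30.9 CPM in Il-17rb-Cre libraries, 730 to 1300 CPM in Il-17ra-Cre libraries and 44.2 to 221 CPM in Il-17rc-Cre libraries. In Il-17ra-Cre against Il-17rc-Cre, where the members were lower, 11 of 12 oligodendrocyte and 7 of 14 microglia and macrophage genes were higher, and with any 1 library left out but Il-17ra-Cre replicate 3 and Il-17rc-Cre replicate 2 these counts were 0 for oligodendrocyte and 0 or 1 for microglia and macrophage genes. The 10 microglia and macrophage genes lower in Il-17rb-Cre against Il-17rc-Cre became 4 or 5 without any 1 of the Il-17rb-Cre libraries or Il-17rc-Cre replicates 2 and 4. The 1 oligodendrocyte gene lower in that comparison, Cnp, was lost without Il-17rb-Cre replicate 1 or 2, with 2 lower without Il-17ra-Cre replicate 3.

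The genes most like the members were sought by Pearson correlation with the mean standardised log2 CPM of the 10 members over the 10 libraries, among the 10425 genes whose average log2 CPM reached 3. The 8 nearest were Myl9 (r = 0.993), E2f5, Tmem47, Ntrk2, Serpine2 and Tmem100 (each r = 0.991), and Nr1h3 and Grtp1 (each r = 0.989). Leaving out 1 library kept 3 to 7 of these 8 names, so the order among them is loose. Since the groups are far apart, this likeness mainly describes the step between groups, and all points share library depth and composition.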

How the data were processed

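The deposited file is a table of raw counts per gene for 10 libraries. Per the submitters' processing notes, reads were aligned with STAR 2.7.5c to GRCm38, while neither counting tool, strand setting nor annotation is stated there. Per the labels' protocols, 400 nl of virus per side was injected at 0.1 µl per minute, polysomes were taken 4 weeks later, and libraries were made with the SMART-Seq v4 kit, which amplifies cDNA without molecular identifiers or strand marks. Low counts therefore vary more than their size implies, and reads of overlapping genes cannot be told apart. No 2 libraries held identical counts.

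All 55536 identifiers were matched to symbols and exon lengths in GENCODE M21 (GRCm38). Genes passing edgeR's filter by group, with the IL-17 receptor genes kept, numbered 20301, and 35235 were removed. After TMM scaling, the quasi-likelihood F test of edgeR 4.0.16 (R 4.3.3) was run with all 10 libraries in 1 model, the label's genotype as the group and Benjamini-Hochberg adjustment at 0.05 over all genes. edgeR's common dispersion came to 0.239 (biological coefficient of variation, 0.489). Errors beside levels are SD and beside fold changes SE. Each SE is the size of the fold change divided by the square root of edgeR's F statistic. It therefore restates that test and is no separate measure of spread. TPM was computed from counts and exon lengths and serves only to compare levels between genes. Counting floors are 3 counts.

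The members, the lists of other genes and the tests were chosen with earlier results of these data known. The genes named from a list were all PDGF genes and relatives of members, and of each other list at most the 4 with the highest mean CPM, plus genes behind a count of 5 or fewer. Enpep, Steap4, Zic1 and Anpep were named after their values were seen. The values of 1 other pericyte marker are not reported here. Alternatives were DESeq2 1.42.0, limma 3.58.1 voom with quality weights, DESeq2 size factors, upper quartile scaling, no filter, a filter of 1 CPM in 3 libraries, only the 2 groups compared, a replicate block, and libraries left out.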

Additional observations from a re-analysis of the deposited data

Results flagged for a closer look

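Among levels of single genes and sums of marker lists in the Il-17rc-Cre group, 27 were tested for a library far from the others, and 2 had one, where chance gives about 1 in 20. Both were in Il-17rc-Cre replicate 2. Its endothelial genes summed to 373.2 CPM, against 132.0 to 149.9 CPM in the other Il-17rc-Cre libraries. Its other pericyte markers summed to 462.2 CPM, against 192.9 to 214.2 CPM in the others. The gap to the nearest library was 0.926 and 0.921 of the range of the group, above Dixon's 95% critical value for 4 samples. Without this library the median log2 fold change of the 10 members was -7.26 in Il-17rb-Cre against Il-17rc-Cre and -2.31 in Il-17ra-Cre against Il-17rc-Cre. In the last comparison 6 members were called lower, as were 244 of all 19897 genes tested.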

How the results depend on the processing

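All 10 members were called lower in Il-17rb-Cre against Il-17ra-Cre and against Il-17rc-Cre under every alternative that gave a test. Their fold changes were below 0 in all 210 alternative values of each comparison. The members were chosen for these differences, so nothing is read from these counts. Of 15501 to 30725 genes tested under the alternatives, 4046 to 6331 were called lower against Il-17ra-Cre and 3686 to 5449 against Il-17rc-Cre. Their median log2 fold change ran from -5.12 to -4.57 against Il-17ra-Cre, from -7.68 to -7.26 against Il-17rc-Cre and from -2.66 to -2.25 in Il-17ra-Cre against Il-17rc-Cre. Without Il-17rb-Cre replicate 3, which held all its counts in that group, Pdgfrb was fitted at -12.26 against Il-17ra-Cre and -14.25 against Il-17rc-Cre, values that depend on the fit and bound nothing. With limma voom Pdgfrb was at -7.883 against Il-17ra-Cre and -9.701 against Il-17rc-Cre, and Kcnj8 at -5.372 and -8.865.

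The number of members called lower in Il-17ra-Cre against Il-17rc-Cre, 6 in the reported model, was 10 with DESeq2 and 10 with limma voom, 0 with only the 2 groups compared, and 0 without Il-17rc-Cre replicates 1 and 3 together. Leaving out 1 library gave 0 to 8. Over all genes that comparison had 281 higher and 162 lower, against 978 and 1123 with DESeq2, 2716 and 1863 with limma voom, 0 and 1 with only the 2 groups, 395 and 296 at 1 CPM in 3 libraries, and 0 to 1541 and 0 to 1345 with 1 library left out. The genes higher in Il-17rb-Cre numbered 5085 with limma voom against 3321 in the reported model for Il-17ra-Cre, and 5582 against 3603 for Il-17rc-Cre, where leaving out Il-17rb-Cre replicate 2 or 3 gave 2221 and 2267. The cause was not tested. In the same comparison of Il-17ra-Cre against Il-17rc-Cre, counts of lower genes ran from 0 to 13 for other pericyte markers, 0 to 5 for smooth muscle and 0 to 6 for Notch genes, and the count of higher Notch genes from 0 to 5.

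Whether replicate numbers pair the samples was not settled. Deviations of same-numbered libraries correlated at -0.083 to 0.181, above 0.1 in 2 of 9 pairs by the title's number and 1 of 9 by the library's. Among differently numbered libraries, 0 of 24 pairs were above 0.1 by the title's number and 1 of 24 by the library's. With the replicate block by title number, 10 members passed in each comparison with Il-17rb-Cre, where 4467 (Il-17ra-Cre) and 3712 (Il-17rc-Cre) of 20301 genes were called lower. In Il-17ra-Cre against Il-17rc-Cre 0 members passed, and over all genes 2 were called lower. The block by library number gave 0 members there too, with 1 gene called lower.

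Directions turned for 3 genes that did not pass in Il-17rb-Cre against Il-17ra-Cre. Tpm2, at -0.64, was at 0.179 with limma voom and from -0.952 to 0.222 with 1 library left out. Esam, at 0.17, was from -0.046 to 0.55 with 1 library left out and at -0.347 without Il-17ra-Cre replicates 1 and 2 together, where Pdgfc, at -0.66, was at 0.233. That model keeps 1 Il-17ra-Cre library and gave fold changes only. Upper quartile scaling moved the median of all genes in Il-17rb-Cre against Il-17rc-Cre to 0.13, against 0.02 under TMM. Depth limits the lowest members most, since Pdgfrb, Notch3 and Abcc9 had 0 to 15 counts in each Il-17rb-Cre library.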
